A study of Macaca fascicularis with 6 samples.

Results

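The secreted WNT antagonists and 1 target of the pathway, 8 genes in all, were followed in single cells of the cynomolgus monkey: the antagonists *FRZB*, *SFRP1*, *SFRP2*, *SFRP4*, *WIF1*, *DKK1* and *DKK3* and the target gene *AXIN2*. They were chosen by name, with earlier results of these data known. All 8 were listed in both deposited count matrices, among 13950 genes in the matrix of iPS cells and organoids and among 14020 genes in the matrix of the 4 cartilage and repair samples. The samples were of 5 conditions, measured by TAS-Seq, a single-cell method in which cDNA made on BD Rhapsody beads is amplified as whole transcriptomes. The cyiPSCs were undifferentiated iPS cells of 1 line, which carries EGFP under a constitutive promoter in the AAVS1 locus. Pre-transplant cyiPS-Cart was the cartilage organoid made from that line, grown in medium with BMP2, TGF-β1 and GDF5. Post-transplant cyiPS-Cart was taken from chondral defects of the knee 4 months after the organoid had been placed there. Its label gives the genotype as wild type, which describes the recipients, whereas its cells descend from the EGFP line according to the study. Articular cartilage without a defect (cyAC) and fibrous tissue from defects that received no organoid (cyFT) came from wild-type monkeys aged 3 to 4 years, the same age as the recipients. Their library is also given as 4 months after surgery. Cells were stained with hashtags and live stained cells were sorted, although the hashtags named for the sort do not include that of the cyFT cells. By the methods, several monkeys of each group were taken at each time and transplanted sites of a monkey were combined for sequencing, but how many monkeys a library holds was not given in the sources used here.

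WNT ligands act at the cell surface through Frizzled receptors and the co-receptors LRP5 and LRP6, which stabilises β-catenin. Secreted Frizzled-related proteins and WIF1 bind the ligands themselves, and DKK1 binds the co-receptors. *FRZB*, also called sFRP3, was found as a product of articular cartilage, and articular chondrocytes are known for holding WNT activity low through such secreted inhibitors. *AXIN2* encodes a scaffold of the complex that degrades β-catenin and is transcribed in response to the pathway, so it is commonly used as a readout of WNT activity.

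Each condition was 1 sample, so no test between conditions was possible. The 95% intervals given below cover counting error only, with reads or cells taken as independent counts. Levels and ratios were taken over reads, not molecules, so their intervals are too narrow where few molecules or cells gave many reads. The intervals say nothing of differences between animals or cultures. Levels are reads scaled to a total of 1000000 listed reads (CPM) over the summed cells of a condition. The cyiPSC and pre-transplant cells shared a library, as did the cyAC and cyFT cells, and post-transplant cells had their own. The matrix of iPS cells and organoids held 2500 and 3527 cells, and the other matrix held 320 cells of each of 4 conditions, of which 300 pre-transplant cells were in both matrices. Median depth ranged from 27499.5 reads per cell in cyFT to 143075 in cyiPSC. A background correction by the authors had left a different lowest count in each library: for *FRZB* it was 8 reads in the cyiPSC and pre-transplant library, 7 in the post-transplant library and 1 in the cyAC and cyFT library, and for *DKK3* it was 1, 1 and 6 reads. For that reason, shares of cells were also taken at 10 reads or more and after thinning every cell to an equal depth of 30967 reads in the matrix of iPS cells and organoids and 12191 reads in the other. At least 3 of 9 chondrocyte markers were read in 99.5% to 100% of the cells of pre-transplant, post-transplant and cyAC samples and in 97.2% of cyFT cells, against 4.16% of cyiPSCs. The chondrocyte markers summed to 34910 CPM in cyFT and 71226 in cyAC. Of the fibroblast markers, at least 3 of 6 were read in 92.5% of the 320 pre-transplant cells and 56.2% of post-transplant cells. They were read in 15.9% of cyAC cells and 67.2% of cyFT cells. Of the pluripotency markers, at least 3 of 6 were read in 87.7% of cyiPSCs. In cyFT, 16 cells (5%) held at least 3 immune markers, a list that summed to 327 CPM in cyFT, 20.7 in cyAC and 3.42 in post-transplant cells.

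*FRZB* was read in most cells of every cartilage and repair sample. It was near absent from cyiPSCs, at 2.76 CPM (2.61 to 2.93), and stood at 468 CPM (465 to 470) in the 3527 pre-transplant cells. In the 320-cell samples it was 519.7 CPM (510 to 529) before transplantation, 1455 (1442 to 1469) after it, 3297 (3264 to 3330) in cyAC and 2592 (2562 to 2622) in cyFT. No 2 of these intervals in the 4-condition matrix overlapped. In such sums, fewer cells that use a gene and less RNA of it per cell cannot be told apart, so shares of cells are given as well. *FRZB* reads were found in 68.1% of pre-transplant cells (62.7 to 73.2), 88.4% of post-transplant cells (84.4 to 91.7), 99.1% of cyAC cells (97.3 to 99.8) and 90.6% of cyFT cells (86.9 to 93.6). The single cells differed more than these shares show. The median cell held 314 CPM before transplantation, 1296 after it and 2475 in cyAC, but only 376 in cyFT, where the upper quartile was 2988 and the lower quartile 89.9. At 10 reads or more, *FRZB* was present in 92.8% of cyAC cells and 86.2% of post-transplant cells, but in 53.1% of cyFT cells. Of the 16 cyFT cells with immune markers, a kind of cell not known for making *FRZB*, 14 held *FRZB* reads, with a median of 6.5 reads in those 14. Over the 16 cells *FRZB* was 372 CPM, and 31.2% of them held 10 reads or more. Low counts of *FRZB* in cyFT, and some of 10 reads or more, were thus also found in cells with markers of another type.

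**Figure D1:**
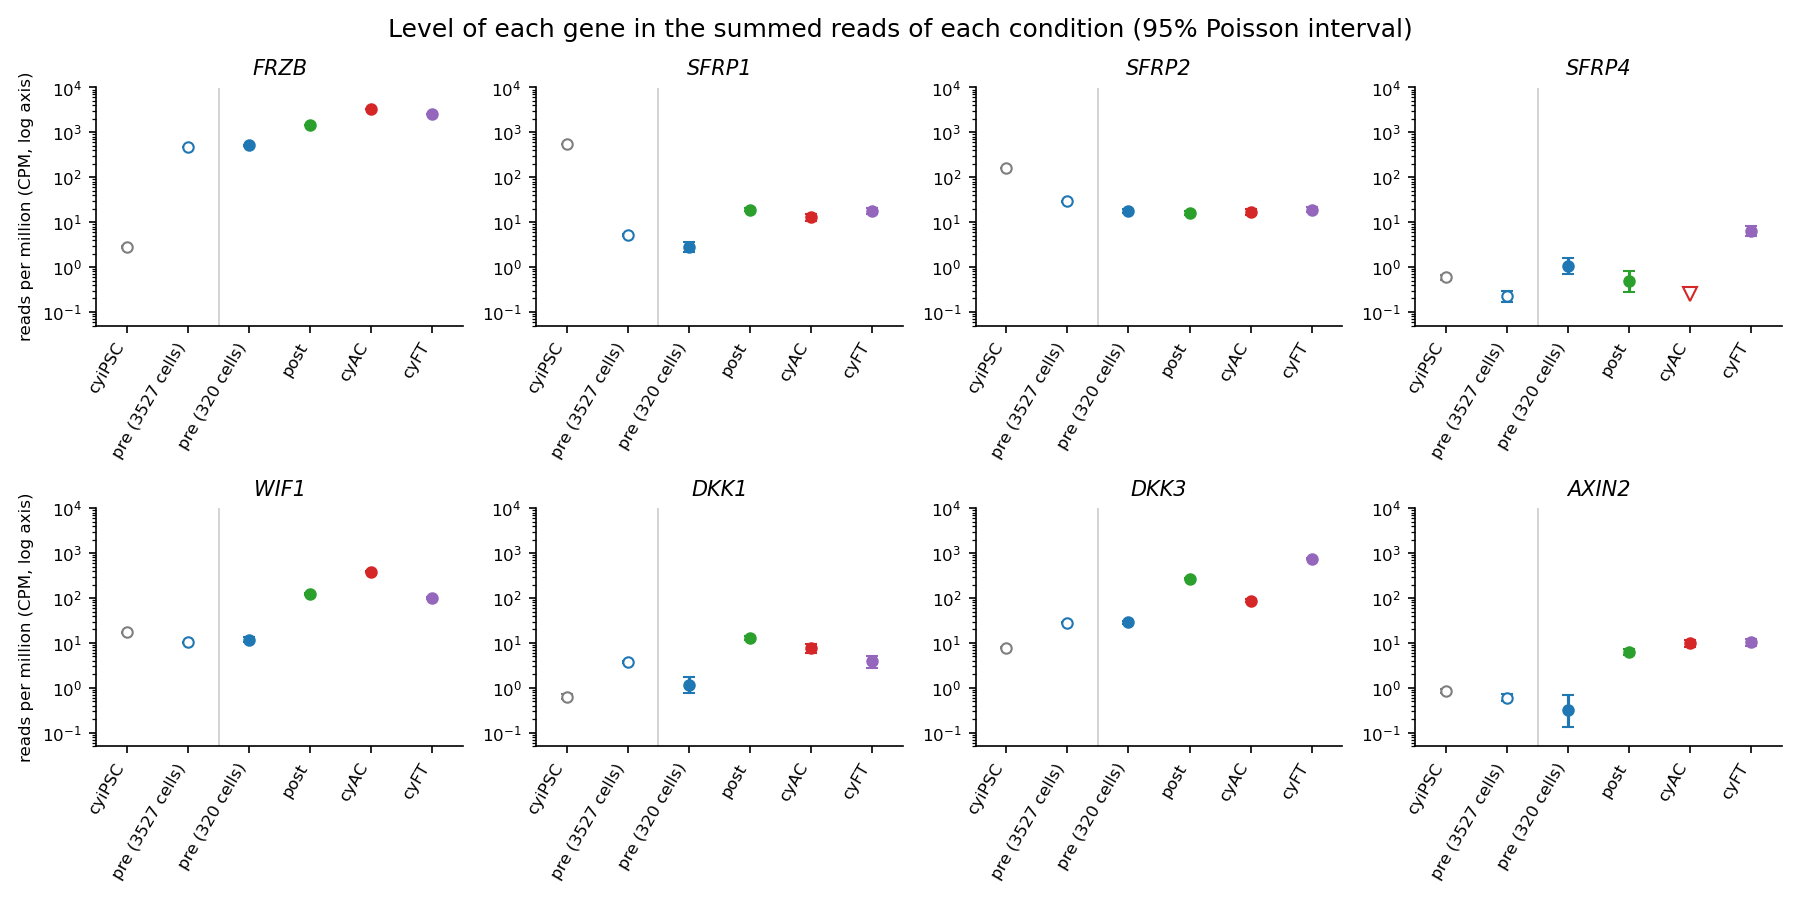
Summed level of each gene (CPM, log axis) in cyiPSC, pre-transplant, post-transplant, cyAC and cyFT cells. Open circles are the matrix of iPS cells and organoids and filled circles the matrix of 320 cells per condition, bars are 95% Poisson intervals, and the open triangle marks the limit for *SFRP4* in cyAC, where no read was found. *FRZB* climbs from 2.76 CPM in cyiPSC to 3297 CPM in cyAC while *SFRP1* falls from 540.4 to 5.30 CPM between cyiPSC and pre-transplant cells.

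*SFRP1* and *SFRP2*, sister genes of *FRZB*, had the opposite pattern and marked the iPS cells. *SFRP1* stood at 540.4 CPM (538 to 543) in cyiPSC and was read in 97.3% of those cells. It was 5.30 CPM (5.01 to 5.60) in the 3527 pre-transplant cells, where 3.88% of the cells held a read. In the 4-condition matrix it was 2.82 CPM before transplantation (2.15 to 3.63), 18.9 after it (17.4 to 20.6), 12.8 in cyAC (10.8 to 15.0) and 17.8 in cyFT (15.4 to 20.4). In the same order, 1.88%, 16.6%, 8.12% and 11.6% of the cells held a read. The lowest *SFRP1* count kept was 6 reads in the pre-transplant library and 1 in the others, and the order of the shares changed with the minimum: they were 1.57%, 9.69%, 4.87% and 9.72% after thinning and 0.938%, 6.56%, 1.56% and 1.88% at 10 reads or more. The post-transplant and cyFT intervals overlapped, and all 3 transplant and host values were far below that of the iPS cells. *SFRP2* stood at 161 CPM (160.0 to 162) in cyiPSC, with reads in 92.8% of the cells. Its pre-transplant level was 29.0 CPM over the 3527 cells and 17.6 over the 320 cells. A single cell of 1085 reads held 15.6% of all *SFRP2* reads of the larger set. After transplantation *SFRP2* was 15.9 CPM (14.5 to 17.4), and it was 17.0 (14.7 to 19.5) in cyAC and 18.9 (16.5 to 21.7) in cyFT. Among the 320-cell samples the intervals of the level overlapped, although the ratio of post-transplant cells to cyFT was 0.838 (0.711 to 0.991). In each of that pair 1 cell held a large part of the *SFRP2* reads, 31.0% after transplantation and 42.4% in cyFT. The level over the 3527 pre-transplant cells (28.3 to 29.7) lay above all of these intervals. The shares of cells had another order: *SFRP2* was read in 19.4% of the 320 pre-transplant cells (15.2 to 24.1), 10.9% of post-transplant cells (7.74 to 14.9), 5.31% of cyAC cells (3.12 to 8.37) and 3.75% of cyFT cells (1.95 to 6.46). After thinning to equal depth these were 8.46%, 4.69%, 4.55% and 4.17%.

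*SFRP4* was hardly detected. It had no read in the 320 cyAC cells, which, with 3 counts taken as the limit of a count of 0, allows a share of up to 0.938% and a level of up to 0.254 CPM. In cyFT it had 71 reads (6.40 CPM, 5.00 to 8.08) in 11 cells, and 28 of these reads lay in 1 cell. The other conditions held between 0.225 and 1.08 CPM.

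*WIF1*, whose product binds WNT ligands through its WIF domain, was highest in native cartilage. It stood at 17.1 CPM (16.7 to 17.5) in cyiPSC, where 36.7% of these deep cells held a read, and at 10.3 CPM (9.92 to 10.7) in the 3527 pre-transplant cells. In the 4-condition matrix it was 11.8 CPM (10.4 to 13.3) before transplantation, 122 (118 to 126) after it, 387 (376 to 399) in cyAC and 100.2 (94.4 to 106) in cyFT. The order was therefore cyAC, post-transplant, cyFT and pre-transplant, with no overlap between neighbours. *WIF1* reads were found in 65.6% of cyAC cells (60.1 to 70.8), 38.1% of cyFT cells (32.8 to 43.7) and 33.1% of post-transplant cells (28.0 to 38.6), of which the latter pair overlapped. Of the 16 cyFT cells with immune markers, 5 held *WIF1* reads (31.2%, 11.02 to 58.7), with a median of 1 read in those 5, against 38.5% of the other cyFT cells (32.99 to 44.2), with a median of 3 reads. Median depth was 46085.5 and 26513.5 reads per cell, and the share of cyFT cells with any *WIF1* read was thus not above that in cells of another type beyond counting error. At 10 reads or more the shares were 35.0%, 8.75% and 23.4%, so the order of cyFT and post-transplant cells by share turned with the minimum count. In cyAC the median cell held 72.9 CPM and the upper quartile 591, and the share of cells with a read was 54.9% after thinning, so a cell without reads is not shown to lack *WIF1*.

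*DKK1*, the classical inhibitor at LRP5 and LRP6, was sparse throughout. Its highest level was 13.1 CPM (11.8 to 14.4) in post-transplant cells, from 390 reads in 11 of 320 cells, of which 105 reads were in a single cell. In the larger pre-transplant set it was 3.74 CPM (3.50 to 4.00), and 1 cell held 30.8% of those 900 reads. It was 0.638 CPM in cyiPSC. In the 4-condition matrix it was 7.53 CPM (6.04 to 9.26) in cyAC from 15 cells, 3.88 (2.81 to 5.22) in cyFT from 8 cells and 1.17 (0.760 to 1.73) in pre-transplant cells from 5 cells. By share of cells the intervals of post-transplant, cyAC and cyFT all overlapped, at 3.44%, 4.69% and 2.5%. The *DKK1* level of a condition therefore rested on a few cells.

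*DKK3*, a divergent member of the Dickkopf family, separated the samples in another way from *FRZB* and *WIF1*. It was 7.85 CPM (7.58 to 8.12) in cyiPSC and 28.5 (27.8 to 29.2) in the 3527 pre-transplant cells. In the 4-condition matrix it was 29.1 CPM (26.9 to 31.5) before transplantation, 269 (263 to 275) after it, 87.6 (82.4 to 93.1) in cyAC and 752 (736 to 768) in cyFT. No neighbours in this order overlapped. *DKK3* reads were in 81.9% of post-transplant cells (77.2 to 85.9) and 63.4% of cyFT cells (57.9 to 68.7), but in only 24 cyAC cells (7.5%, 4.86 to 10.95) and 15.3% of pre-transplant cells (11.5 to 19.7). Since the lowest *DKK3* count kept was 1 read in the post-transplant library and 6 in the cyAC and cyFT library, the shares at 10 reads or more are the more alike: 49.7% after transplantation, 57.2% in cyFT, 5.94% in cyAC and 5% before transplantation. In cyAC, 10 cells held 81.8% of all *DKK3* reads, and 1 cell held 24.2%. None of the 16 cyFT cells with immune markers held a *DKK3* read.

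**Figure D2:**
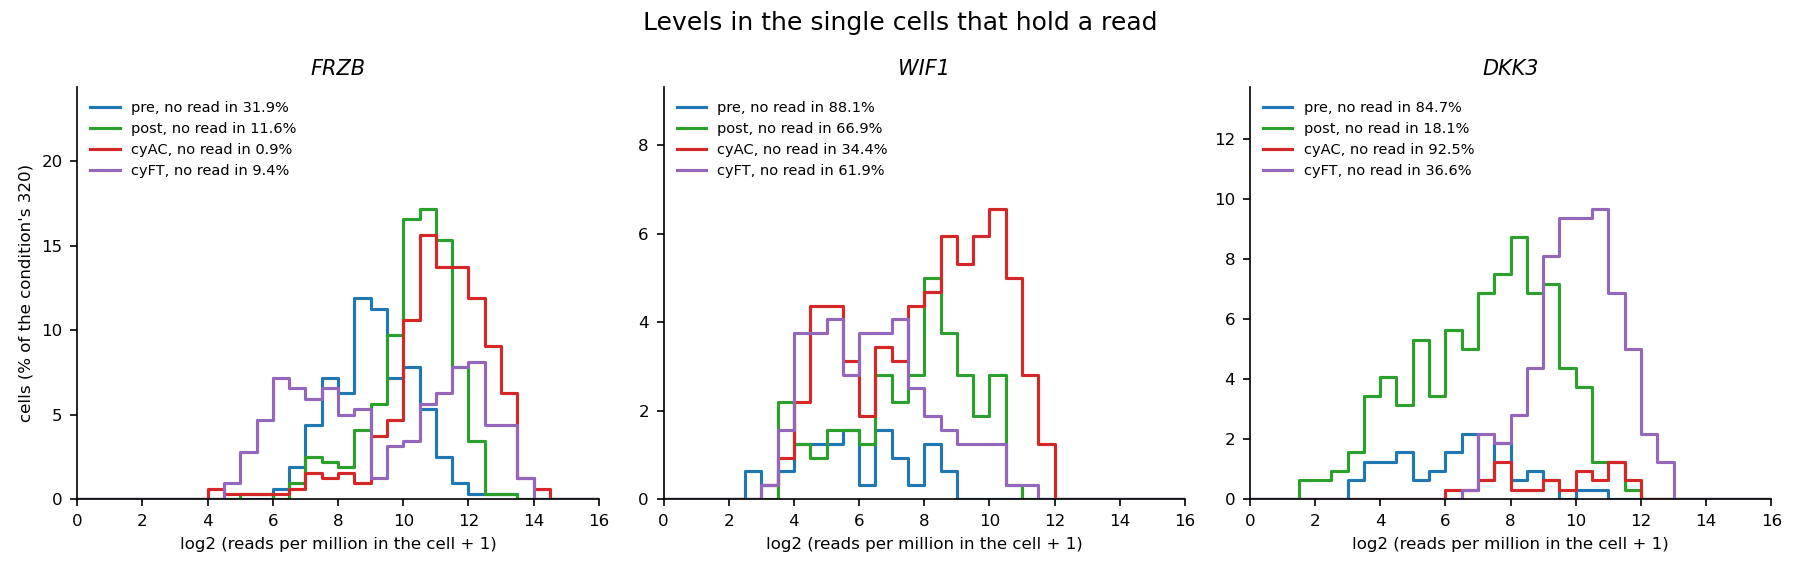
Distribution of *FRZB*, *WIF1* and *DKK3* over the cells that held a read, as log2 (CPM in the cell + 1) on the x axis and percent of the condition's 320 cells on the y axis, with the share of cells without a read in the key. The cyFT cells spread over a low and a high group for *FRZB*, while cyAC cells form a single high group, and *DKK3* is present in 81.9% of post-transplant and 63.4% of cyFT cells but 7.5% of cyAC cells.

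*AXIN2* was low in every condition. It was 0.862 CPM (0.775 to 0.956) in cyiPSC, where 97 of 2500 cells held a read, and 0.607 (0.513 to 0.714) in the 3527 pre-transplant cells, where 42 did. In the 4-condition matrix 7 reads in 2 pre-transplant cells gave 0.329 CPM (0.132 to 0.677), 185 reads in 14 post-transplant cells gave 6.20 (5.34 to 7.16), 115 reads in 23 cyAC cells gave 9.72 (8.03 to 11.7) and 116 reads in 18 cyFT cells gave 10.5 (8.65 to 12.5). The levels of cyAC and cyFT overlapped. The post-transplant interval lay above that of pre-transplant cells and below those of cyAC and cyFT. It takes reads as independent counts, but 95.1% of the post-transplant reads lay in 10 cells, so this order of levels is not settled. By share of cells, 4.38% after transplantation (2.41 to 7.23), 7.19% in cyAC (4.61 to 10.6) and 5.62% in cyFT (3.37 to 8.74) all overlapped. After thinning the shares were 2.5%, 4.55% and 3.47%, against 0.313% before transplantation, and at 10 reads or more they were 2.19%, 0.938% and 0.938%.

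**Figure D3:**
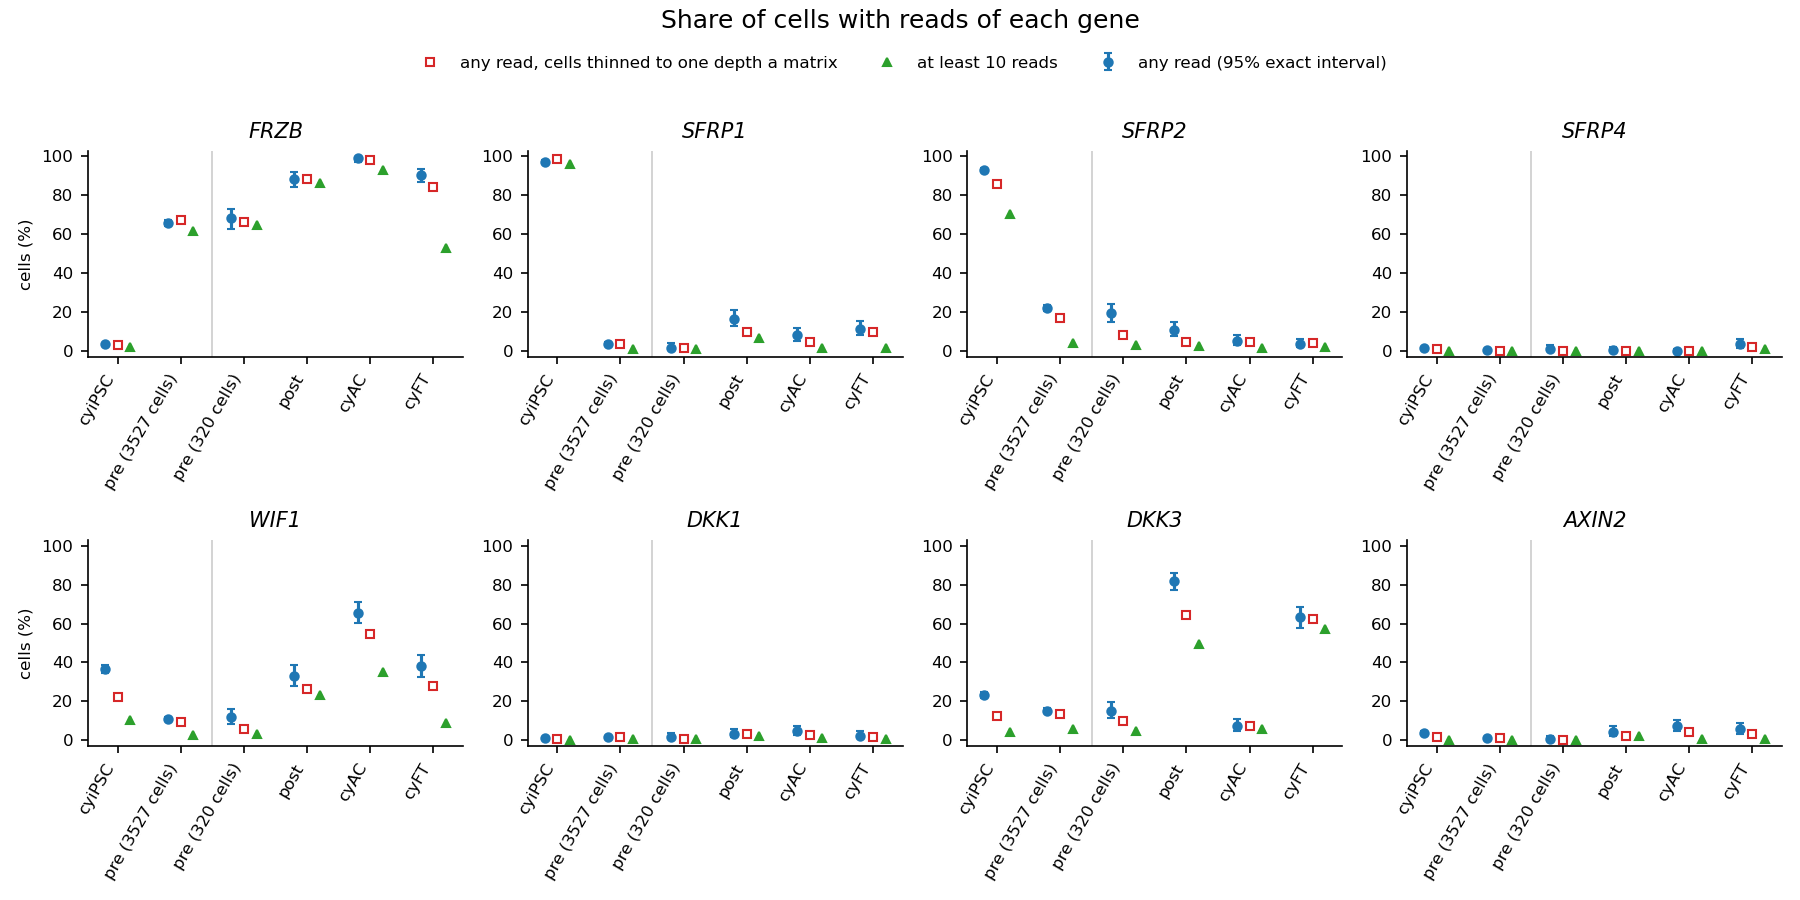
Share of cells (%) with any read of each gene (circles, with exact 95% intervals), with any read after thinning to equal depth within a matrix (squares) and with at least 10 reads (triangles), for cyiPSC, pre-transplant, post-transplant, cyAC and cyFT cells. The 3 measures differ most for *FRZB* in cyFT (90.6% against 53.1% at 10 reads or more) and for *DKK3* after transplantation (81.9% against 49.7%).

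The number of antagonists that a cell held was counted over the 7 genes. In thinned cells it averaged 2.24 in cyiPSC and 1.13 in pre-transplant cells of the same matrix. In the 4-condition matrix it averaged 0.934 before transplantation, 1.97 after it, 1.73 in cyAC and 1.92 in cyFT. Cells without a read of any of the 7 made up 25.1% of thinned pre-transplant cells, 2.81% of post-transplant cells, 0.649% of cyAC cells and 2.08% of cyFT cells. The lowest count kept, which differed between the libraries, also enters these averages.

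Ratios between conditions were then set against those of all genes. A gene was compared where it reached 10 CPM in either condition, and called where the log2 ratio of CPM + 1 was at least 1 in size, which is a fold of 2. From cyiPSC to pre-transplant cyiPS-Cart, 16.5% of the 8576 genes compared were called higher and 37.4% lower. Scaling by edgeR's TMM factors made that split 26.4% and 18.8%. Of the 8 genes, 5 reached the minimum. *FRZB* was 169-fold higher (160 to 179) with a log2 ratio of 6.96, and *DKK3* was 3.63-fold higher (3.48 to 3.79). *SFRP1* was 102-fold lower (96.6 to 108) and *SFRP2* was 5.55-fold lower (5.42 to 5.69). *WIF1*, at a log2 ratio of -0.68, was not called, and the median over all genes compared was -0.61. Within 1 library, the antagonist with reads in most cells had thus passed from *SFRP1* to *FRZB*.

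From pre- to post-transplant cyiPS-Cart the background was 8.92% higher and 18.5% lower of 7587 genes (12.6% and 12.8% with TMM factors), with a median log2 ratio of -0.25. Of 6 genes that reached the minimum, 5 were higher and none lower. *SFRP1* and *DKK1* stood at 2.82 and 1.17 CPM before transplantation and reached the minimum only after it. Those genes could therefore enter the count only as higher. *WIF1* was 10.4-fold higher (9.13 to 11.8), *DKK3* 9.22-fold (8.50 to 10.0), *SFRP1* 6.72-fold (5.14 to 8.92) and *FRZB* 2.80-fold (2.74 to 2.86). *DKK1* was 11.1-fold higher (7.42 to 17.4) on 390 against 25 reads. *SFRP2* had a log2 ratio of -0.14. *AXIN2* and *SFRP4* did not reach 10 CPM and are not among the 6. Without that minimum *AXIN2* was past 2-fold too, at a log2 ratio of 2.44 on 185 against 7 reads. The organoid before and after transplantation came from different libraries, so library and condition cannot be told apart. Between them the 6 fibroblast markers went from a sum of 25026 to 71013 CPM, with *COL1A2* and *COL3A1* higher and *POSTN* lower, while the share of cells with at least 3 of them went from 92.5% to 56.2%. Mitochondrial reads were 5.51% before and 1.97% after transplantation. The part of either in these ratios was not tested. Against the larger set of 3527 pre-transplant cells, the same 5 genes were called, but the log2 ratio of *DKK1* fell from 2.69 to 1.57 and that of *SFRP1* from 2.38 to 1.66, and that of *SFRP2* became -0.83.

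Between cyFT and cyAC, which shared a library, 12.2% of 7900 genes were higher and 3.92% lower in cyFT (8.80% and 5.64% with TMM factors), with a median log2 ratio of 0.19. *DKK3* was 8.58-fold higher in cyFT (8.05 to 9.16), and *WIF1* was 3.87-fold lower (3.62 to 4.13). The other 4 genes that reached the minimum lay within 2-fold: *FRZB* at a log2 ratio of -0.35, *SFRP1* at 0.45, *SFRP2* at 0.15 and *AXIN2* at 0.10. The ratio of *AXIN2* was 1.08 (0.824 to 1.40), an interval that holds 1. From cyAC to cyFT the 9 chondrocyte markers went from a sum of 71226 to 34910 CPM, with 4 lower and none higher. The 6 fibroblast markers went from 8629 to 47029 CPM, with 3 higher and none lower. The 5 immune and 3 cycling markers that reached the minimum were all higher in cyFT. The part of these cell types in the ratios was not tested.

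Post-transplant cyiPS-Cart was set against both host tissues, in comparisons that share the post-transplant cells. Against cyAC, with 10.7% of 7621 genes higher and 15.8% lower, *DKK3* was 3.07-fold higher (2.87 to 3.27), and *WIF1* was 3.17-fold (3.03 to 3.31) and *FRZB* 2.27-fold (2.23 to 2.30) lower. *DKK1*, *SFRP1* and *SFRP2* were within 2-fold, at log2 ratios of 0.72, 0.53 and -0.09. Against cyFT, with 6.65% of 7981 genes higher and 21.8% lower (12.7% and 14.1% with TMM factors), *DKK3* was 2.80-fold lower (2.71 to 2.89) and *DKK1* was 3.37-fold higher (2.45 to 4.73) on 390 against 43 reads. *FRZB*, *AXIN2*, *SFRP2*, *SFRP1* and *WIF1* were within 2-fold, at log2 ratios of -0.83, -0.67, -0.24, 0.09 and 0.29. For *DKK3* the post-transplant organoid thus lay between cyAC and cyFT, and for *FRZB* it lay below both. TMM scaling moved the median log2 ratio of all genes to 0.09, -0.02, 0.00, 0.04 and 0.06 in the 5 comparisons, in the order given here, and changed no call of the 8 genes.

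**Figure D4:**
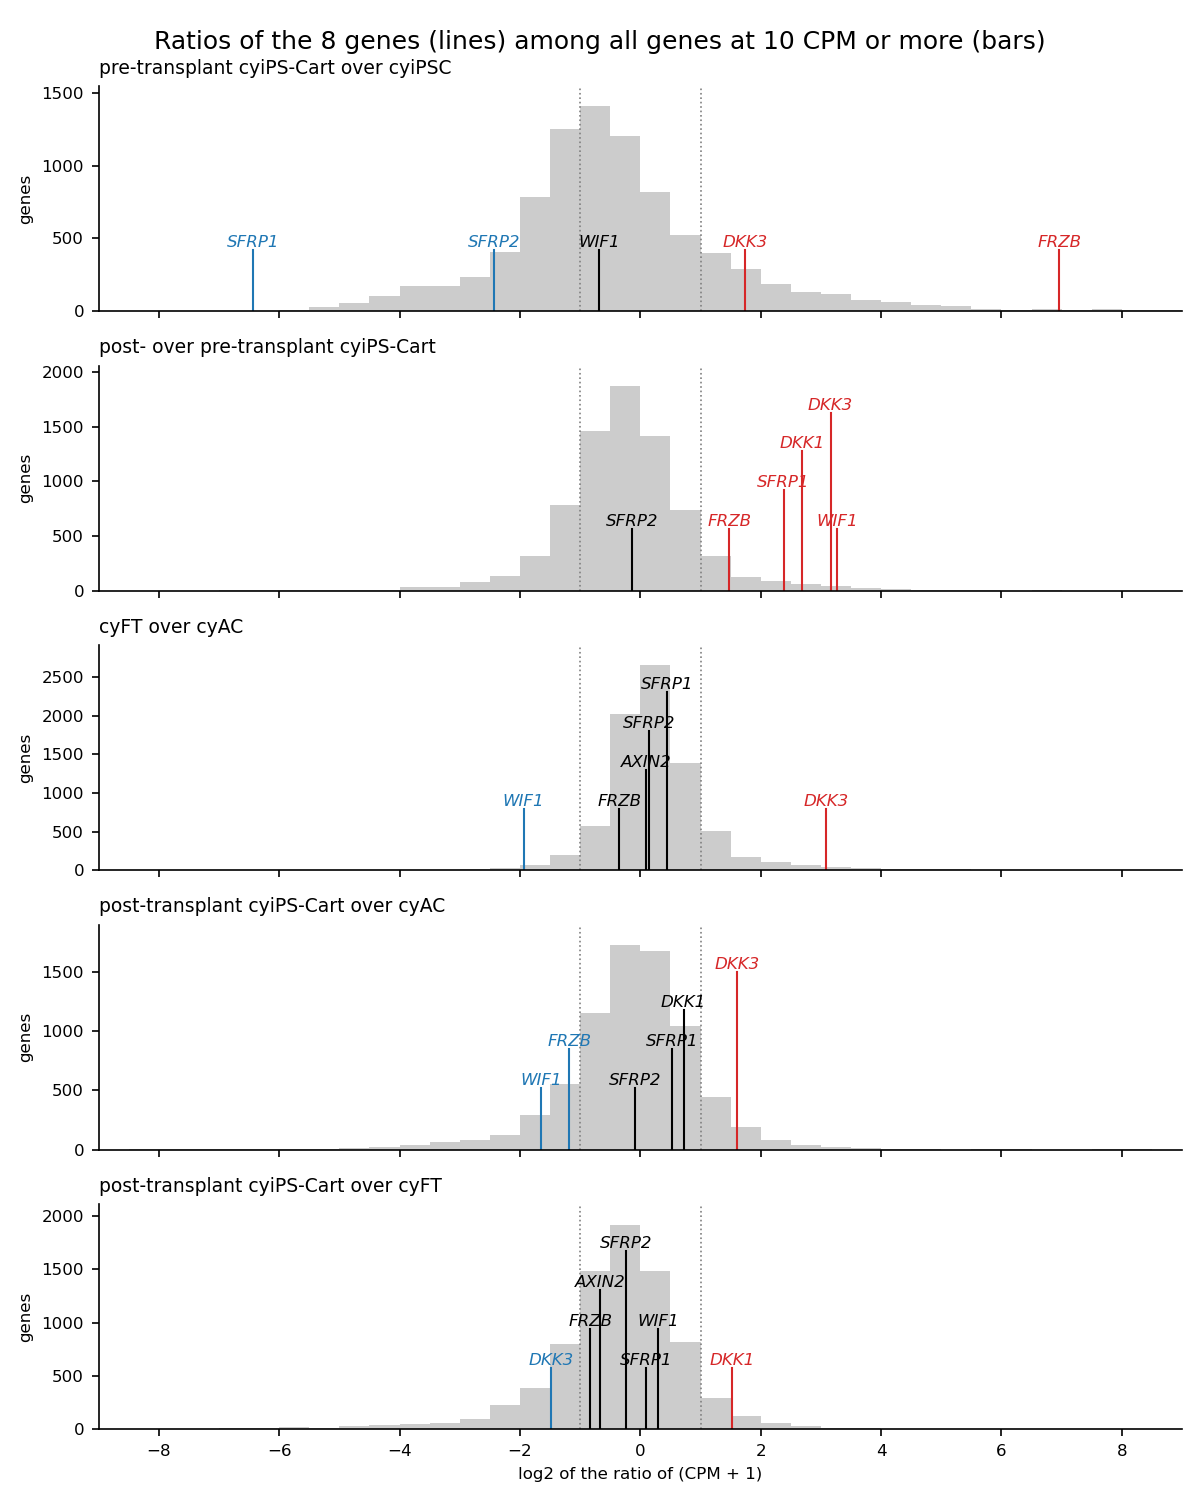
Log2 ratio of CPM + 1 (x axis) of the 8 genes that reached 10 CPM (lines) over the histogram of all genes compared (bars, number of genes on the y axis), with dotted lines at a fold of 2. Red marks genes called higher, blue lower and black neither. After transplantation 5 of 6 genes lie right of the dotted line, of which *SFRP1* and *DKK1* reached 10 CPM only in post-transplant cells.

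Which cells held the antagonists was then described by collagen reads, since *COL2A1* is the fibrillar collagen of hyaline cartilage and *COL1A1* that of fibrous tissue. Cells were put in classes by whether they held reads of *COL2A1* only, *COL1A1* only, both or neither, and classes of at least 20 cells were used. The lowest *COL1A1* count kept was 277 reads in pre-transplant cells, 497 in post-transplant cells, 76 in cyAC and 81 in cyFT, so a cell without *COL1A1* reads could hold more of it in one library than in another. In cyFT, 84 cells held *COL2A1* only, 170 held *COL1A1* only, 33 held both and 33 neither.

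*FRZB* and *DKK3* were split between these cells in opposite directions. In cyFT, *FRZB* stood at 5426 CPM in *COL2A1*-only cells and 491 in *COL1A1*-only cells, an 11.04-fold difference (10.6 to 11.6). At 10 reads or more it was in 100% and 31.8% of those cells. In the 16 cyFT cells with immune markers it was 372 CPM, and 31.2% of them held 10 reads or more, at a median depth of 46085.5 reads. Whether the *FRZB* reads of *COL1A1*-only cells arose in those cells was not tested. *DKK3* stood at 58.2 CPM in *COL2A1*-only cells and 1521 in *COL1A1*-only cells, 26.1-fold higher (23.1 to 29.7), and was read in 17.9% and 87.6% of the cells. Cells with both collagens lay between, at 1891 CPM of *FRZB* and 1006 CPM of *DKK3*. *WIF1* was 175 CPM in *COL2A1*-only and 67.9 CPM in *COL1A1*-only cells, a 2.57-fold difference (2.25 to 2.95), but in cells with both collagens it was below either, at 19.2 CPM (12.003 to 29.0). *SFRP1* went with *COL1A1*, at 34.2 against 1.79 CPM, on 148 against 8 reads. *AXIN2* was 17.0 CPM in *COL2A1*-only cells on 76 reads and 7.16 in *COL1A1*-only cells on 31 reads, 61.3% of them in 1 cell. The *COL2A1*-only cells of cyFT were the deeper ones, with a median of 47802.5 reads against 21830, and the part of depth in these differences was not tested beyond the thinned shares. Those were 15.5% and 90.3% for *DKK3*, 44.0% and 22.2% for *WIF1* and 100% and 76.4% for *FRZB*.

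*FRZB* and *DKK3* were opposed in the same way in the organoid before transplantation. Among the 3527 pre-transplant cells, *DKK3* stood at 165 CPM in 254 *COL1A1*-only cells and 7.11 in 2588 *COL2A1*-only cells, 23.2-fold apart (21.7 to 24.8). *FRZB* stood at 35.8 and 576 CPM in those classes, 16.1-fold apart (14.8 to 17.5) in the other direction. *SFRP2* was higher in *COL1A1*-only cells, at 196 against 13.5 CPM, although 33.6% of the reads of that class lay in 1 cell, and it was read in 41.7% against 18.1% of the cells. *WIF1* was 1.76 against 12.3 CPM. *SFRP1*, at 6.32 against 4.60 CPM, was not split by 2-fold. *AXIN2* was 1.52 CPM in *COL1A1*-only cells on 25 reads, 15 of them in 1 cell, and 0.414 CPM in *COL2A1*-only cells on 70 reads, the other direction from cyFT. Depth was similar in both classes, at medians of 53338 and 56355.5 reads.

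**Figure D5:**
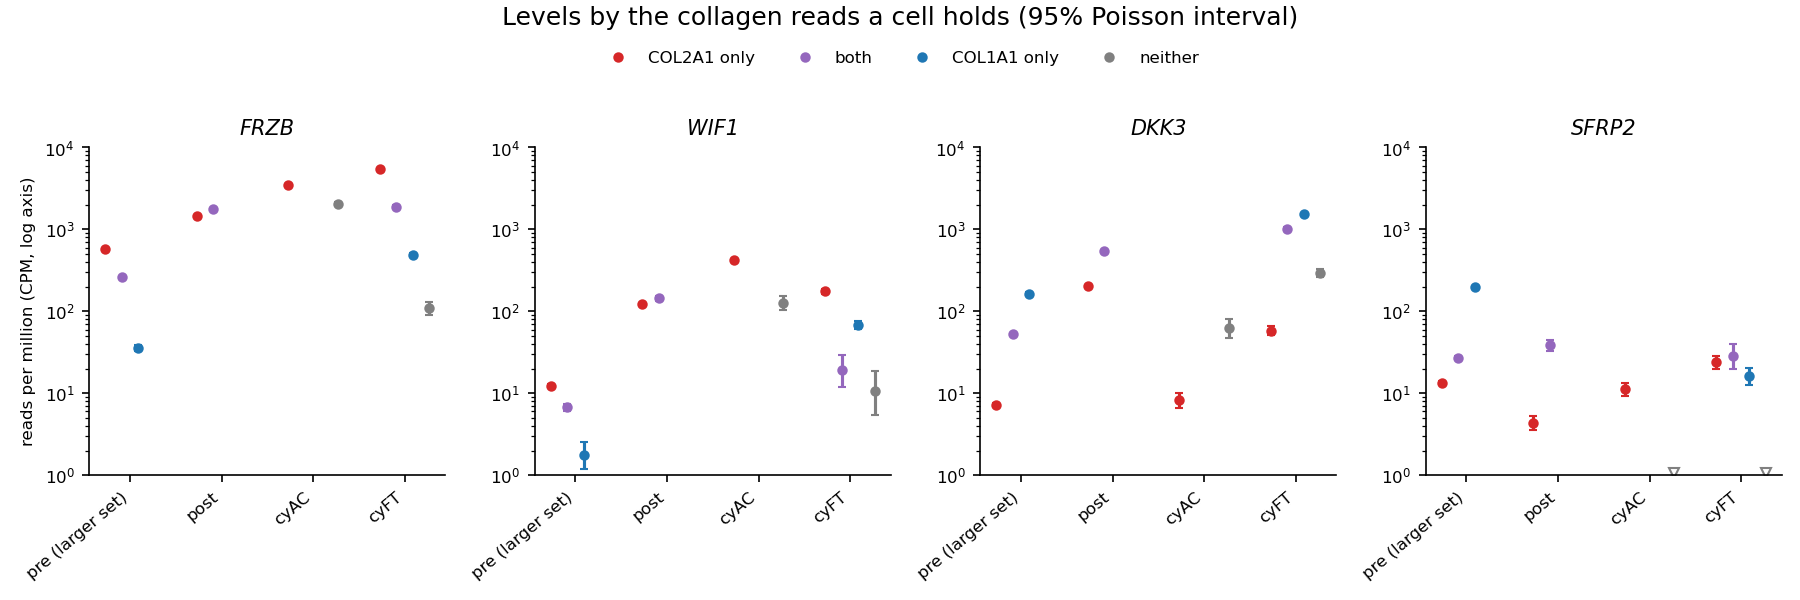
Levels of *FRZB*, *WIF1*, *DKK3* and *SFRP2* (CPM, log axis) in cells with *COL2A1* reads only, both collagens, *COL1A1* reads only or neither, for classes of at least 20 cells in the 3527 pre-transplant cells and in post-transplant, cyAC and cyFT cells, with 95% Poisson intervals and an open triangle for a class without a read. *DKK3* in *COL2A1*-only cells is 203 CPM after transplantation but 7.11 before it, 8.24 in cyAC and 58.2 in cyFT.

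After transplantation *DKK3* was also read in most cells without *COL1A1* reads. Of the 320 post-transplant cells, 265 held *COL2A1* only and 47 both. *DKK3* stood at 203 CPM in the former and 545 in the latter, and was read in 80.4% and 91.5% of them. In *COL2A1*-only cells of cyAC it stood at 8.24 CPM and was read in 4 of 276 cells. The ratio between these classes was 24.6 (19.9 to 30.9), against 3.07 over all cells. At 10 reads or more, *DKK3* was in 45.7% of post-transplant and 1.09% of cyAC *COL2A1*-only cells. Against the *COL2A1*-only cells of cyFT the ratio was 3.48 (3.07 to 3.96), so the direction of that comparison turned from 2.80-fold lower over all cells to higher within the class. Fibroblast markers differed between these samples too, and their part in the result was not tested. The 6 markers summed to 71013 CPM in post-transplant cells, 8629 in cyAC and 47029 in cyFT, and 56.2%, 15.9% and 67.2% of the cells held at least 3 of them. Against cyAC 4 of the 6 were higher after transplantation (*COL1A1*, *COL1A2*, *COL3A1* and *POSTN*) and *THY1* was lower, and against cyFT *COL3A1* and *POSTN* were higher and *PDGFRA* and *THY1* lower. *COL1A2* was read in 88.4% of post-transplant cells, 11.6% of cyAC cells and 66.6% of cyFT cells. In the 35 post-transplant cells that held *COL2A1* and neither *COL1A1* nor *COL1A2* reads, a subset chosen after the values were seen, *DKK3* stood at 124 CPM with reads in 68.6% of cells. In the 272 such cyAC cells it was 8.35 CPM, a ratio of 14.9 (11.7 to 19.1), and in the 83 such cyFT cells it was 58.7 CPM, a ratio of 2.12 (1.80 to 2.50).

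*FRZB* and *WIF1* differed between samples within *COL2A1*-only cells too. *FRZB* was 617 CPM before transplantation, 1440.2 after it, 3498 in cyAC and 5426 in cyFT. Post-transplant cells were thus 2.33-fold above pre-transplant cells (2.28 to 2.39) and 2.43-fold below cyAC. In cyFT, where *FRZB* over all cells was below cyAC, it was 1.55-fold above cyAC within this class (1.53 to 1.58). *WIF1* was 12.4, 122, 423 and 175 CPM in the same order, so it remained 3.45-fold below cyAC after transplantation and 2.42-fold below cyAC in cyFT. Over all cells and within the class, *WIF1* was therefore lower in both repair samples than in native cartilage.

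*PRG4*, which encodes lubricin and marks the superficial zone, was the other gene by which the cells were split. Its lowest count kept was 22 reads in pre-transplant cells and 1 read in the other conditions of the 4-condition matrix. In post-transplant cells, 227 held *PRG4* reads and 93 did not. *FRZB* was 1424 and 1561 CPM in those cells, *WIF1* 127 and 106 and *DKK3* 239 and 366. None of these differed by 2-fold. In cyFT, *FRZB* was 2.51-fold higher in cells with *PRG4* reads (2.33 to 2.71), at 2689 against 1069 CPM, and *DKK3* was 1.95-fold lower (1.82 to 2.09), at 711 against 1386 CPM. The 41 cyFT cells without *PRG4* reads were shallow, with a median of 15648 reads against 30224. In the 3527 pre-transplant cells *FRZB* was 487 CPM with *PRG4* reads and 463 without, while *SFRP2* was 14.7 against 32.2 CPM and *DKK3* 20.5 against 30.3 CPM. Of the *SFRP2* reads in cells without *PRG4*, 17.2% lay in 1 cell. In the 320 pre-transplant cells *SFRP2* went the other way, at 19.5 against 17.2 CPM. *DKK1* was 4.19-fold lower with *PRG4* reads in the 3527 cells (3.11 to 5.76), at 1.04 against 4.35 CPM, with 32.4% of the reads of the latter class in 1 cell. *WIF1* was 8.37 against 10.8 CPM in this set. In the 320 pre-transplant cells it had 2 reads in the 53 cells with *PRG4* and 249 reads, or 14.4 CPM, in the 267 cells without, where its level was 28.8-fold higher (7.89 to 239). In cyFT, *SFRP2* was 19.9 CPM with *PRG4* reads and 4.50 without, on 207 and 3 reads. The 207 reads lay in 11 cells, 43.0% of them in 1 cell, and the 3 reads in 1 cell. *SFRP1* and *SFRP4* were lower with *PRG4* reads there, at 16.6 against 36.0 CPM and 5.09 against 27.0 CPM.

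Pairs of antagonists were then looked for in the same cells. In the 3527 pre-transplant cells, 10.6% of cells with *FRZB* reads and 24.1% of cells without them held *DKK3*. In post-transplant cells the corresponding shares were 83.0% and 73.0%, and 64.5% and 63.2% after thinning. In thinned pre-transplant cells they were 8.24% and 23.9%. In cyAC, *DKK3* was in 4.76% of cells with *WIF1* and 12.7% of cells without it, and in cyFT in 54.9% and 68.7%. Across the 320 cells of cyFT the Spearman correlation of log2 levels was -0.381 for *FRZB* with *DKK3*, 0.734 for *FRZB* with *COL2A1* and 0.559 for *DKK3* with *COL1A1*. In post-transplant cells it was -0.014, 0.096 for *FRZB* with *COL2A1* and -0.262 for *DKK3* with *COL2A1*. These are descriptions over cells of 1 library, which also share depth: *FRZB* and *DKK3* correlated with reads per cell at 0.342 and -0.292 in cyFT and at -0.019 and 0.018 in post-transplant cells.

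*AXIN2* was set beside each antagonist cell by cell, with no test. All 14 post-transplant and all 18 cyFT cells with *AXIN2* reads held *FRZB* reads, but so did 88.4% and 90.6% of all cells there, and 0 of 37 and 0 of 30 cells without *FRZB* leave upper limits of 9.49% and 11.6% for *AXIN2* (exact Clopper-Pearson). In cyFT, *AXIN2* was in 9.84% of cells with *WIF1* (5.19 to 16.6) and 3.03% of cells without it (1.12 to 6.48). After thinning these were 5% (1.38 to 12.3) and 2.88% (1.07 to 6.17). This split of cyFT is by any *WIF1* read, which cells with immune markers also held, and the median was 2 reads in the cells with *WIF1*. In cyAC, *AXIN2* was in 7.62% of cells with *WIF1* and 6.36% of cells without it, an order that turned after thinning, at 2.96% (0.967 to 6.77) and 6.47% (3.00 to 11.9). For *DKK3* the shares were 3.82% with and 6.90% without in post-transplant cells and 4.93% and 6.84% in cyFT, but 12.5% with (3 of 24 cells) and 6.76% without in cyAC and 1.30% and 1.17% in the 3527 pre-transplant cells. In the 3527 pre-transplant cells *AXIN2* was in 3.32% of cells with *WIF1* (1.78 to 5.62) and 0.925% of cells without it (0.620 to 1.33), which became 2.36% (0.956 to 4.81) and 0.869% (0.563 to 1.28) after thinning. Over all antagonists and conditions, 54 such pairs of shares were formed, 29 over all reads and 25 after thinning, without adjustment for their number. The intervals were separate in 2 of them, both in the larger pre-transplant set: for *WIF1* over all reads, as above, and for *SFRP1* after thinning, at 4.07% of cells with it (1.33 to 9.23, 5 of 123 cells) and 0.885% of cells without it (0.584 to 1.28). Over all reads the *SFRP1* intervals overlapped, at 3.65% (1.19 to 8.31) and 1.09% (0.770 to 1.501). In every other pair the intervals overlapped, which does not show that the shares were alike.

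The genes most alike to each antagonist over single cells were taken as the 5 with the highest mean Spearman correlation within conditions, over genes and conditions with reads in at least 25% of cells. For *FRZB*, over 4 conditions and 2860 genes, they were *COL9A2* (0.442), *SCRG1* (0.399), *CHAD* (0.386), *COL9A1* (0.384) and *CNMD* (0.371), all of them known from cartilage, and the median gene stood at 0.007. In post-transplant cells alone *CNMD* stood at 0.010 and *SCRG1* at 0.333. For *DKK3*, over post-transplant and cyFT cells and 3183 genes, they were *COL1A2* (0.431), *TNC* (0.363), *COL14A1* (0.356), *COL5A2* (0.352) and *IGFBP7* (0.331), of which the collagens and tenascin C are matrix genes of fibrous connective tissue. The 5 coefficients lay between 0.459 and 0.593 in cyFT and between 0.112 and 0.278 in post-transplant cells. For *WIF1*, over 3 conditions and 2897 genes, the likeness was weak, led by *ENPP2* at 0.218. The cells of a condition share a library, and these values carry no test.

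Of 87 other genes of the pathway, 69 were listed. From cyiPSC to pre-transplant cells 31 reached the minimum, of which 3 were higher (9.68%) and 11 lower (35.5%), against 16.5% and 37.4% of all genes. Those at 50 CPM or more were *WLS*, which carries WNT ligands to the surface (69.4 against 18.1 CPM), and *ROR1*, a receptor for WNT5A (4.88 against 68.3 CPM). From pre- to post-transplant cells 28 reached it, with 7 higher (25%) and 5 lower (17.9%), against 8.92% and 18.5% of all genes. *NOTUM*, a secreted deacylase that inactivates WNT ligands, was 7.25-fold higher (6.33 to 8.33) at 78.6 against 10.8 CPM. *TLE1*, a co-repressor, was also higher (156 against 47.4 CPM), as was *ROR2* (96.8 against 46.4 CPM). The WNT receptor gene *RYK* was lower (106 against 293 CPM), as were *CSNK1A1*, a kinase of the β-catenin degradation complex (194 against 397 CPM), and *TPBG* (46.5 against 95.9 CPM). Of the feedback targets listed beside *AXIN2*, which include *DKK1*, the 3 that reached the minimum (*NOTUM*, *TNFRSF19* and *DKK1*) were higher after transplantation. Of these, *DKK1* is counted above, rested on 11 cells and reached the minimum only after transplantation. Between post-transplant cells and cyAC 4 feedback targets reached it, with *NOTUM* and *TNFRSF19* higher and *APCDD1* lower. From cyiPSC to pre-transplant cells 2 reached the minimum (*APCDD1* and *TNFRSF19*), and both were lower, as were 37.4% of all genes.

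*SFRP5*, a further secreted Frizzled-related protein gene that is not among the 8, set cyAC apart. It stood at 444 CPM in cyAC, and 47.8% of the cells held a read. In cyFT it stood at 17.3 CPM, and in post-transplant cells at 0.603 CPM, from 18 reads in a single cell. Between cyFT and cyAC 34 of the other pathway genes reached the minimum, with 4 higher (11.8%) and 6 lower (17.6%) in cyFT, against 12.2% and 3.92% of all genes, and *SFRP5* had a log2 ratio of -4.60. Between post-transplant cells and cyAC 35 did, with 6 higher (17.1%) and 8 lower (22.9%), against 10.7% and 15.8% of all genes. There *NOTUM* was 35.8-fold higher (24.3 to 54.9), *TLE1* 7.38-fold and *ROR2* 2.51-fold higher, and *TPBG* was lower at 46.5 against 142 CPM. Between post-transplant cells and cyFT 33 did, against a background of 6.65% higher and 21.8% lower, with 6 higher (18.2%), among them *NOTUM* at 7.26-fold (6.04 to 8.80), *ROR2* and *TLE1*, and 7 lower (21.2%), among them *GSK3A*.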

How the data were processed

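The deposited values are whole-number counts of reads for each gene in each cell, made by the authors. They assigned cDNA reads to Ensembl cynomolgus transcripts with Bowtie2 2.4.2 (the submitters' processing notes list GRCh38 as build), kept cells above the inflection point of total reads, split pooled conditions by their hashtags, removed low counts that a fitted distribution assigned to diffusion of abundant transcripts, and reduced the second matrix to 320 cells per condition. No step that counts molecules is described, so counts were taken as reads. A cell was given its condition by the prefix of its name, the library titles and the authors' code. The 3 hashtag libraries were not used.

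Reads were summed per condition and scaled to CPM. Shares have exact Clopper-Pearson 95% intervals, levels Poisson intervals and ratios exact conditional intervals. All are for counting error only and take cells or reads as independent counts. No test was run, since each condition was 1 sample. Calls were log2 ratios of CPM + 1 of at least 1 in size, over genes at 10 CPM or more in either condition. Thinning left out 60 cyiPSC and 353 pre-transplant cells in the matrix of iPS cells and organoids, and 1 pre-transplant, 0 post-transplant, 12 cyAC and 32 cyFT cells in the other. Scrublet (scanpy 1.11.5) marked 14 of the cells of the matrix of iPS cells and organoids, too few to have worked, and 26 pre-transplant, 8 post-transplant, 2 cyAC and 2 cyFT cells of the other; marked cells were kept. Cell numbers shared between libraries were 2, 4 and 0. The ratio and thinning steps were tested on simulated counts. Alternatives were other minimum counts and CPM, other pseudocounts, thinning, mean CPM per cell, leaving out mitochondrial genes or marked doublets, edgeR 4.0.16 TMM factors on the deposited counts, *COL2A1*-only cells and the larger pre-transplant set.

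Named genes were the 8 members, other pathway genes called at 50 CPM or more (at most 6 per comparison) and the 5 most alike to each member. The members, lists and rules were chosen with earlier results of these data known. All 8 symbols were found in a RefSeq table of another assembly, used for names only.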

Additional observations from a re-analysis of the deposited data

How the results depend on the processing

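Of 334 log2 ratios of the 8 genes under alternatives, 299 stayed on their side of the 2-fold limit and 316 kept their sign. A called ratio turned for *DKK3* between post-transplant cells and cyFT, from -1.48 to 1.78 in *COL2A1*-only cells and to 1.07 where *COL1A2* reads were also absent (a subset chosen after seeing the data). Of 110 counts of called genes, 95 stayed within 1.5 times and 15 did not. With a minimum of 50 CPM, higher calls fell to 1 (pre-transplant over cyiPSC), 3 (post- over pre-transplant) and 0 (post-transplant over cyFT), since fewer genes were compared. In *COL2A1*-only cells there was 1 lower call post- over pre-transplant (*SFRP2*), 2 higher calls in cyFT over cyAC (with *SFRP2*) and 2 in post-transplant over cyAC (with *SFRP1*), and 2 higher (*SFRP1*, *DKK3*) and 3 lower (*FRZB*, *SFRP2*, *AXIN2*) in post-transplant over cyFT. Of the *SFRP2* reads in that cyFT class, 83.2% lay in 1 cell. Without a filter, *AXIN2* was also higher in post- over pre-transplant cells (log2 ratio 2.44) and *DKK1* in pre-transplant cells over cyiPSC (1.53). Without a filter and by mean CPM per cell, *SFRP4* made higher calls 2 in cyFT over cyAC and lower calls 2 in post-transplant over cyFT. For post-transplant over cyAC, higher calls were 2 by mean CPM per cell and by thinning (*DKK1* added), and 3 with counts under 10 reads set to 0 (*SFRP1* and *DKK1* added; chosen after seeing the data). Where no construction of the alternative shows it, the cause was not tested. Of 144 shares at other minimum counts or depth, 65 stayed within the interval of the main share. Depth and the lowest counts kept limit shares across libraries, and *SFRP4*, *DKK1* and *AXIN2* rested on few cells. With 1 sample per condition, no replicate could be left out.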

Other observations

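Some pathway genes under the level set for naming had patterns of their own, and they are given here as values, chosen after these were seen. *SOST*, which encodes the LRP5 and LRP6 inhibitor sclerostin, was found at 34.7 CPM in cyAC with reads in 10.6% of cells, at 5.59 CPM in cyFT and at 0.569 CPM in post-transplant cells, where all 17 reads lay in 1 cell. *TRABD2B*, which encodes the WNT protease TIKI2, stood at 30.7 CPM in cyAC, 21.8 in post-transplant cells, 4.74 in pre-transplant cells and 3.79 in cyFT. *KREMEN1*, a co-receptor of DKK1, stood at 19.6 CPM before transplantation and between 45.7 and 50.0 CPM in the other 3 conditions of that matrix.

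In cyiPSC, *LEF1*, *NKD2* and *ZNRF3*, which the pathway is known to induce, stood at 8.40, 9.46 and 6.73 CPM, against 0.686, 0.166 and 2.10 CPM in the 3527 pre-transplant cells. *AXIN2* was 0.862 and 0.607 CPM in the same cells, and *DKK1*, also a feedback target, went the other way, at 0.638 and 3.74 CPM. *NKD2* had no read in post-transplant, cyAC and cyFT cells. *WNT5A*, a ligand of ROR receptors, stood at 24.0 CPM before and 8.74 CPM after transplantation.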
